A study of Homo sapiens with 16 samples.

Results

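Whether metastasizing cells of the BJ fibroblast model responded to moderate hypoxia differently from transformed cells was asked gene by gene, as the change from atmospheric to 3% oxygen in metastasizing cells minus the same change in transformed cells. The comparison uses 8 of the 16 RNA-seq libraries of the study and 12590 of its 19356 protein-coding genes, namely those with a mean of at least 1 TPM (transcript level per library, scaled to a common total) in any of the 4 groups. No gene entered the test for its response. The gene lists used below, however, were chosen with earlier results of these data known, so their shares of calls are descriptive. At that limit TBX19 and GNMT, with highest group means of 1.001 and 1.003 TPM, were included, and GOLGA6L4 and FUT2, at 0.998 TPM each, were left out.

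BJ is a line of human foreskin fibroblasts, and the study follows it through 4 isogenic stages, of which the last 2 are compared here. Transformed cells (labelled BJ hTERT+ SV40+) carry the telomerase catalytic subunit hTERT and SV40, and metastasizing cells (BJ hTERT+ SV40+ with Ras-G12V) carry both of these and a mutated RAS as well, so hTERT and SV40 are shared by all 4 groups. Each stage is a single line without an independently derived second line. Plates were kept at atmospheric or at 3% oxygen over 6 passages in medium with 10% serum, 5% CO2 and 37 °C in every group, and 2 plates were sequenced per group, replicates a and b. The p-values therefore measure the spread between plates within a line, pooled in the fit over the 16 libraries of all 4 stages. The labels name no batch.

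Cells sense oxygen through prolyl hydroxylases, which mark the HIF alpha subunits for degradation as long as oxygen is available. When oxygen falls, HIF dimers accumulate and switch on genes of glycolysis, angiogenesis, pH regulation, mitophagy and collagen hydroxylation. Oncogenic RAS signalling is known to raise part of this programme without a fall in oxygen, through the MAPK and PI3K pathways, and in fibroblasts it also changes matrix, cytokine and lipid synthesis genes.

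Replicates spread unequally between groups. Of the genes of at least 1 TPM, 1.91% and 1.89% differed more than 2-fold between replicates in transformed and metastasizing cells at atmospheric oxygen, 4.08% in transformed cells at 3% oxygen and 11.0% (1301 of 11843) in metastasizing cells at 3% oxygen. Results are therefore also given without single libraries. A group left with 1 library adds nothing to the estimated spread, so such a fit shows how values move and does not check that group's spread. The deposited TPM keep no read counts, so the depth behind a value is unknown. TERT was listed at 35.4 and 31.6 TPM at atmospheric and 75.1 and 78.0 TPM at 3% oxygen in transformed cells, and 68.2 and 56.9 against 31.7 and 68.1 TPM in metastasizing cells, and its level, which can include the native gene, was above 30 TPM in all 8 libraries. HRAS measured 119.8 and 99.0 TPM in transformed cells at atmospheric oxygen, 49.4 and 61.8 TPM in transformed cells at 3% oxygen, 94.6 and 78.1 TPM in metastasizing cells at atmospheric oxygen and 143 and 772 TPM in metastasizing cells at 3% oxygen. At atmospheric oxygen both HRAS values of metastasizing cells lay below both of transformed cells, and gene TPM cannot separate the mutated from the native allele, so its level does not check the stage label. SV40 transcripts were not analysed here.

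Among the 14 fibroblast markers, at least 13 reached 1 TPM in every group, with a summed level of 4900.1 to 7529 TPM. Of the 12 epithelial markers 2 to 5 reached 1 TPM in a group (summed 13.8 to 20.2 TPM), of the 9 endothelial markers analysed 1 did (1.56 to 21.3 TPM), and of the 12 leukocyte markers 1 to 3 did (44.9 to 111 TPM). The leukocyte sum came mostly from the 2 members that passed the filter, CD68 and LAPTM5 (43.4 to 109 TPM together). LAPTM5 was at or under 1.26 TPM in every library. Keratinocyte KRT5 and KRT14, endothelial CDH5 and leukocyte PTPRC stayed under the limit of 1 TPM in all 4 group means. In bulk RNA, fewer cells of a type and less RNA per cell cannot be told apart.

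The responses differed between the stages for 1056 genes (8.39% of the 12590 tested), at an adjusted p under 0.01 and a difference beyond 1 on the log2(TPM + 0.5) scale in limma with Benjamini-Hochberg adjustment. For 703 of them (5.58%) the response was lower in metastasizing cells, and for 353 (2.8%) it was higher. Genes that met both criteria are named as called below. For all 1056, the 4 differences between a library at 3% and a library at atmospheric oxygen in one stage lay on one side of the 4 in the other stage, which was also so for 48.6% of all genes tested. The median difference over all genes was -0.15, and with median-ratio rescaling or quantile normalization, which move it to -0.026 and 0.0070, the split became 474 higher and 553 lower or 507 higher and 551 lower.

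Most called genes had fitted responses of opposite sign in the 2 stages, which was so for 586 of the 703 lower genes and for 264 of the 353 higher genes. Among the lower genes, 253 rose with hypoxia in transformed cells and were not called in metastasizing cells, 178 fell in metastasizing cells and were not called in transformed cells, 28 did both and 237 were called in neither stage taken alone. Among the higher genes, 139 rose in metastasizing cells alone, 75 fell in transformed cells alone, 7 did both and 123 were called in neither. Over all genes, 593 (4.71%) rose and 314 (2.49%) fell in transformed cells (7.2% in either direction), against 371 (2.95%) and 558 (4.43%) in metastasizing cells (7.38%). The same difference can be read as a change of the distance between the stages. Over all genes, 288 (2.29%) were higher and 208 (1.65%) lower in metastasizing cells at atmospheric oxygen (3.94% in all), and 239 (1.9%) higher and 474 (3.76%) lower at 3% oxygen (5.66% in all). Of the genes with a lower response, the stages were called different at atmospheric oxygen alone for 137 and at 3% oxygen alone for 236, and of those with a higher response for 75 and 112.

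**Figure D1:**
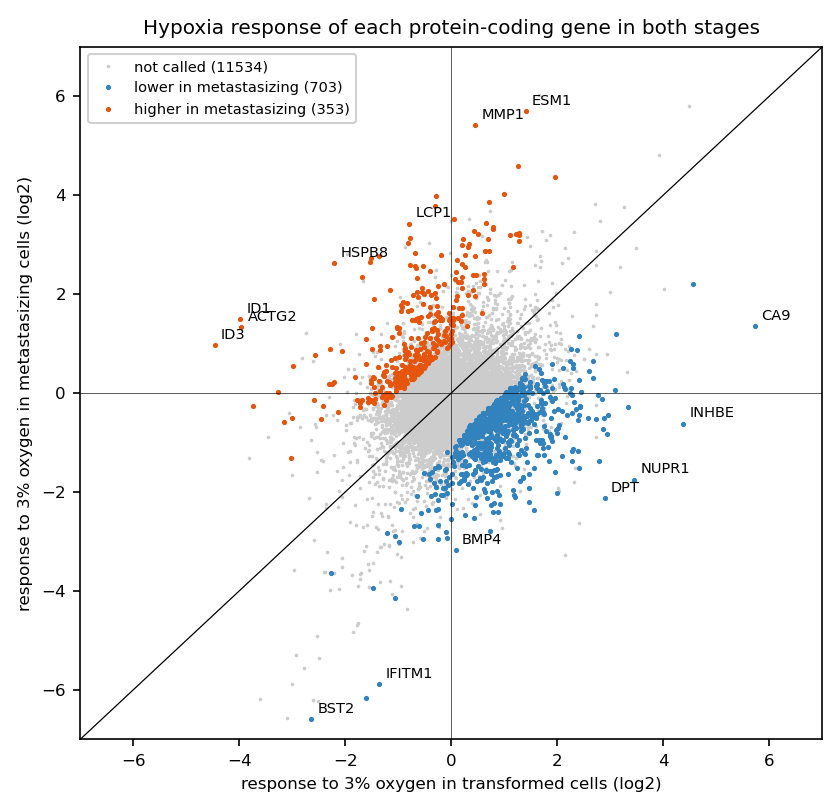
Each point is a protein-coding gene, with its log2 change from atmospheric to 3% oxygen in transformed cells on the x axis and in metastasizing cells on the y axis, from the limma fit, and the diagonal marks equal responses. The 703 genes with a lower response in metastasizing cells (blue) lie mainly at the lower right and the 353 with a higher response (orange) mainly at the upper left, with CA9, INHBE, NUPR1 and DPT at one end and ID1, ID3 and ACTG2 at the other.

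Left-out libraries moved the number of calls. Because the disagreement of the replicates in the reduced group then leaves the estimated spread, a call kept in such a fit is no check of it. It fell to 621 and 587 without transformed replicate a or b at atmospheric oxygen and to 578 without metastasizing replicate b at atmospheric oxygen, and it was 1680 without metastasizing replicate b at 3% oxygen. Whichever library was left out, 453 of the 1056 genes were called, 306 lower and 147 higher.

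HIF target genes responded in transformed cells and, with few exceptions, were not called in metastasizing cells. Of 33 tested, 17 had a lower response in metastasizing cells (51.5%, against 5.58% of all genes) and none was called higher. The list had a median difference of -1.02, against -0.15 over all genes. In transformed cells the median response was 1.12 and 19 members rose, against 4.71% of all genes. In metastasizing cells it was 0.021, with 2 members called up and 1 down, against 2.95% and 4.43% of all genes. At atmospheric oxygen 13 members were already higher in metastasizing than in transformed cells (median 1.01), against 2.29% of all genes. At 3% oxygen none was higher and 3 were lower, against 1.9% and 3.76% of all genes, and the median was -0.22.

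The sequences just before the start sites of 3 of the 17 genes are shown because the letters that HIF binds, ACGTG, can be read in them. They are the 250 bases before the start in RefSeq, build GRCh38.p14, for CA9 (chr9:35673678-35673927, plus strand), ANKRD37 (chr4:185396591-185396840, plus strand) and BNIP3 (chr10:131981924-131982173, minus strand), with ACGTG on either strand in capitals:
CA9: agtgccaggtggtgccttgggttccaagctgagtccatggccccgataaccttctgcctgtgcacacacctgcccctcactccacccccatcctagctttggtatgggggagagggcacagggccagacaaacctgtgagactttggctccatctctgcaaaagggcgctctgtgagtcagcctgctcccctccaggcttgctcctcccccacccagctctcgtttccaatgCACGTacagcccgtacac
ANKRD37: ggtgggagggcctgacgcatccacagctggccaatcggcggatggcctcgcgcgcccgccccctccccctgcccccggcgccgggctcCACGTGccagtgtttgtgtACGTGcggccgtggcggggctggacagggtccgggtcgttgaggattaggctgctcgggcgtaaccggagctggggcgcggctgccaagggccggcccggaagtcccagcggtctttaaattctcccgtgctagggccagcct
BNIP3: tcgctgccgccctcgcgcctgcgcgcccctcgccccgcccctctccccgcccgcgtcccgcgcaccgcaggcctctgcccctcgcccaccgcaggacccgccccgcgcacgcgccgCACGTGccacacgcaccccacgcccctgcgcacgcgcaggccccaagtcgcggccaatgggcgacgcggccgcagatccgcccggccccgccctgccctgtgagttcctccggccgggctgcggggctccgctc

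ACGTG was found on either strand in 12 of the 14 called members with an entry, and in 16 of 25 members with an entry, against 23.6% of 10190 promoters of tested genes. In 4 of the 14 it stood within CACGTG, which is also the E-box of other factors. These are matches of letters, and binding was not measured. Beside the genes that a rule named (stated under the processing), further members of the lists are given below, and these were picked after their values were seen.

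CA9 (chr9:35673925-35681156 in GRCh37), a carbonic anhydrase of the cell surface that regulates pH, measured 0.231 and 0.487 TPM in transformed cells at atmospheric oxygen, 44.02 and 45.5 TPM in transformed cells at 3% oxygen, 5.42 and 3.12 TPM in metastasizing cells at atmospheric oxygen and 7.13 and 17.8 TPM in metastasizing cells at 3% oxygen. Both transformed libraries at 3% oxygen lay above all 6 others, and those of metastasizing cells at 3% oxygen lay above their controls by far less. The difference between the responses was -4.38 (standard error 0.68, adjusted p = 0.00123, limma), from a response of 5.74 in transformed cells and of 1.35 in metastasizing cells, where it was not called (adjusted p = 0.0569). MXI1, an antagonist of MYC, was at 3.87 and 7.14 TPM at atmospheric and 53.5 and 44.4 TPM at 3% oxygen in transformed cells, and 19.7 and 17.4 against 18.9 and 19.9 TPM in metastasizing cells. In metastasizing cells the libraries of both oxygen levels overlapped, and in transformed cells they were far apart, with a difference between responses of -3.02 (standard error 0.30, adjusted p = 0.000122, limma).

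BNIP3 and BNIP3L are receptors of mitophagy. BNIP3 was found at 115 and 117 TPM at atmospheric and 445 and 426 TPM at 3% oxygen in transformed cells, and 333 and 338 against 274 and 476 TPM in metastasizing cells, so that metastasizing replicate a at 3% oxygen lay below both controls and replicate b above them. Its response differed by -1.80 (standard error 0.26, adjusted p = 0.000833, limma). For BNIP3L the difference was -1.60, with a rise of 2.10 in transformed cells. VEGFA, the main angiogenic growth factor, measured 27.0 and 33.5 TPM in transformed cells at atmospheric oxygen, 161 and 138 TPM in transformed cells at 3% oxygen, 78.0 and 76.9 TPM in metastasizing cells at atmospheric oxygen and 155 and 87.6 TPM in metastasizing cells at 3% oxygen. All metastasizing libraries lay between the controls and the 3% libraries of transformed cells except replicate a at 3% oxygen, which fell among the latter, and the difference was -1.71 (standard error 0.32, adjusted p = 0.00363, limma). That call was lost without transformed replicate a at either oxygen level or without either metastasizing replicate at atmospheric oxygen. Over all 8 fits without a library the values lay between -2.12 and -1.29.

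PPFIA4, a liprin of cell adhesion, and INSIG2, an inhibitor of sterol synthesis, had responses of opposite sign in the fit. PPFIA4 measured 1.32 and 0.800 TPM at atmospheric and 11.1 and 11.5 TPM at 3% oxygen in transformed cells, and 6.64 and 5.82 against 2.26 and 4.70 TPM in metastasizing cells, with both metastasizing libraries at 3% oxygen under both controls, and its responses differed by -3.77 (standard error 0.42, adjusted p = 0.000206, limma). INSIG2 was at 15.1 and 9.92 TPM at atmospheric and 33.9 and 31.9 TPM at 3% oxygen in transformed cells, and 23.5 and 27.0 against 7.80 and 14.0 TPM in metastasizing cells, and it rose by 1.39 in transformed cells and fell by 1.23 in metastasizing cells. The difference for INSIG2 was -2.62 (standard error 0.34, adjusted p = 0.000474, limma).

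NDRG1, a hypoxia marker of differentiation and stress, rose in both stages, from 14.4 and 15.3 TPM to 344 and 384 TPM in transformed cells and from 84.3 and 62.9 TPM to 232 and 490.0 TPM in metastasizing cells. The levels at 3% oxygen overlapped between the stages and the difference of -2.36 (standard error 0.42, adjusted p = 0.00248, limma) went with the higher controls of metastasizing cells. EGLN1, the prolyl hydroxylase that marks HIF alpha and is itself a HIF target, was at 26.8 and 32.4 TPM at atmospheric and 64.4 and 76.0 TPM at 3% oxygen in transformed cells, and 41.5 and 47.4 against 37.1 and 44.1 TPM in metastasizing cells, a difference of -1.36 (standard error 0.20, adjusted p = 0.00106, limma). HIF1A itself measured 344 and 339.8 TPM in transformed cells at atmospheric oxygen, 436 and 348 TPM in transformed cells at 3% oxygen, 288 and 329.9 TPM in metastasizing cells at atmospheric oxygen and 259 and 254 TPM in metastasizing cells at 3% oxygen. Its difference was -0.45 (adjusted p = 0.0479, limma) and was not called.

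Collagen-modifying targets were part of the same group. P4HA1, a collagen prolyl hydroxylase, differed by -1.66, LOX, which crosslinks collagen, by -1.60, and PLOD2, a lysyl hydroxylase, by -1.02 (standard error 0.17, adjusted p = 0.00163, limma). The other called members were DDIT4 (-3.59), an inhibitor of mTORC1, ANKRD37 (-1.92), STC2 (-1.78), FAM162A (-1.62) and WSB1 (-1.50). Without single libraries the list median lay between -1.26 (without metastasizing replicate b at 3% oxygen) and -0.86 (without replicate a). The calls of 11 of the 17 held whichever library was left out, and those of DDIT4, NDRG1, STC2, VEGFA, FAM162A and PLOD2 did not. Fitting the 8 libraries alone, with 4 in place of 8 residual degrees of freedom, left 3 of the 17 calls.

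Not all HIF targets met the criteria for a call. PDK1, the kinase that holds back pyruvate oxidation, had 14.0 and 11.8 TPM at atmospheric and 34.4 and 26.9 TPM at 3% oxygen in transformed cells, and 23.4 and 28.0 against 27.2 and 39.0 TPM in metastasizing cells, a difference of -0.87 that was not called (adjusted p = 0.0301, limma). Its direction was that of the called members, with a called response of 1.21 in transformed cells and an uncalled 0.34 in metastasizing cells. STC1, a secreted glycoprotein, rose in both stages, by 3.50 and 2.93, and its difference of -0.56 (standard error 0.84) became 0.40 without metastasizing replicate a at 3% oxygen. ANGPTL4 was at or under 1.84 TPM in every library.

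**Figure D2:**
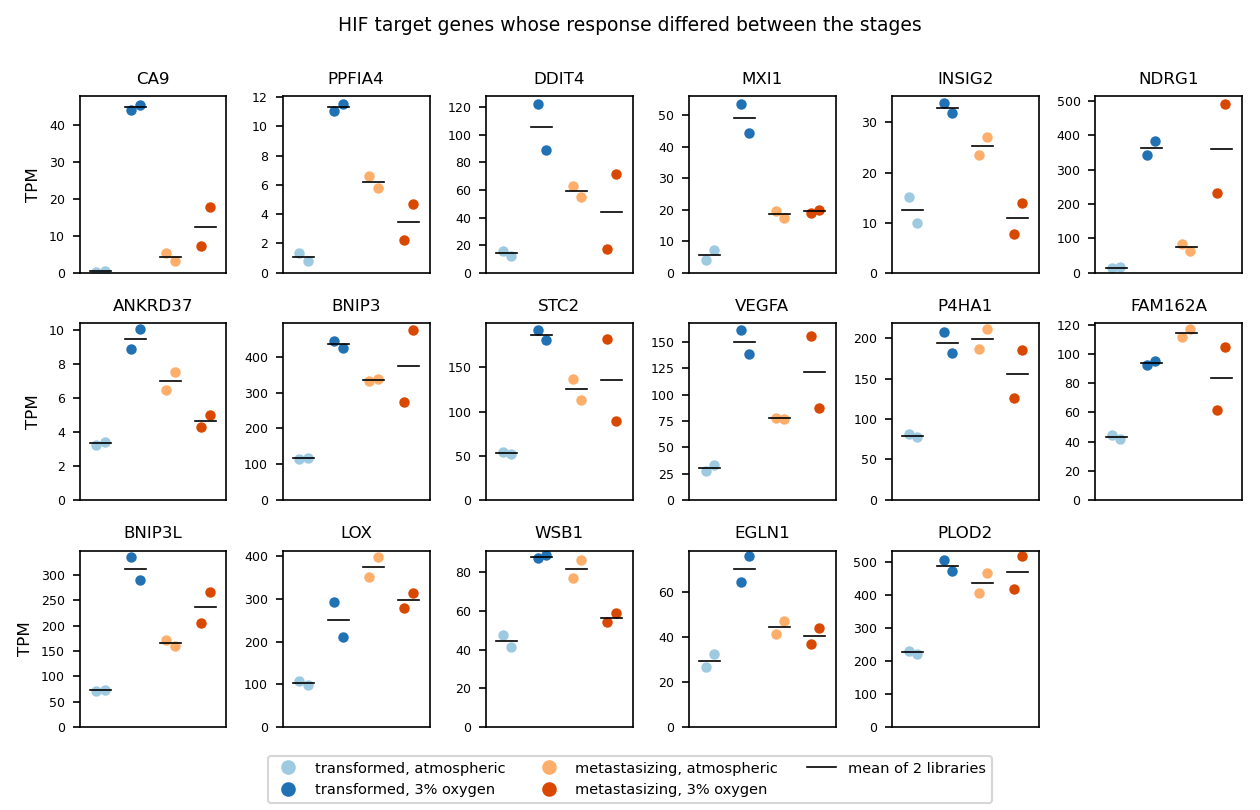
Points show TPM of the 2 libraries of each group for the 17 HIF target genes called in the comparison of responses, with a line at the group mean, one panel per gene with its own axis from 0. In transformed cells the 3% libraries (dark blue) stand above the controls (light blue) in every panel, for NDRG1 at 344 and 384 against 14.4 and 15.3 TPM, and the metastasizing groups are in light orange (atmospheric) and dark orange (3%).

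Glycolysis genes had fewer calls. Of 21 enzymes and transporters, 6 had a lower response in metastasizing cells (28.6%, against 5.58% of all genes) and none was called higher. The median difference was -0.41, which became -0.16 without metastasizing replicate a and -0.75 without metastasizing replicate b at 3% oxygen. The 6 were the glucose transporters SLC2A3 and SLC2A1, hexokinase HK2, ALDOC, ENO2 and PFKFB4, a bifunctional regulator of the pathway. SLC2A3 measured 21.4 and 23.5 TPM at atmospheric and 54.7 and 53.4 TPM at 3% oxygen in transformed cells, and 51.4 and 60.8 against 39.96 and 41.0 TPM in metastasizing cells, so hypoxia went with higher values in transformed and with lower ones in metastasizing cells, and the difference was -1.71 (standard error 0.15, adjusted p = 4.98e-05, limma). ENO2 rose in transformed cells by 1.70 and differed by -1.30 (standard error 0.13, adjusted p = 0.000107, limma), and both calls held whichever library was left out. ALDOC was at 10.7 and 12.8 TPM at atmospheric and 75.5 and 48.8 TPM at 3% oxygen in transformed cells, and 72.1 and 67.1 against 39.1 and 97.1 TPM in metastasizing cells, and was called between the stages at atmospheric oxygen (2.52) while the levels overlapped at 3% oxygen. The call of its difference of -2.50 (standard error 0.48, adjusted p = 0.00369, limma) was lost without any 1 of 5 libraries (all those at atmospheric oxygen and transformed replicate a at 3% oxygen). Over all 8 fits without a library the values lay between -3.15 and -1.85. The calls of PFKFB4, HK2 and SLC2A1 were lost without 6, 6 and 7 of the 8 libraries, and 2 to 6 members of the list were called without single libraries.

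The integrated stress response, in which ATF4 switches on amino acid synthesis and stress genes, is an arm of the reply to nutrient and protein stress. In transformed cells 14 of 24 members rose (median 1.32), against 4.71% of all genes. In metastasizing cells 15 of the 24 had a response above 0 and none was called (median 0.18). The difference was called lower for 8 members (33.3%, against 5.58% of all genes), higher for none, and its median was -0.99. NUPR1 (chr16:28544029-28550329 in GRCh37), a small stress-induced chromatin protein, measured 3.51 and 3.75 TPM in transformed cells at atmospheric oxygen, 49.4 and 40.5 TPM in transformed cells at 3% oxygen, 93.0 and 78.6 TPM in metastasizing cells at atmospheric oxygen and 58.7 and 10.5 TPM in metastasizing cells at 3% oxygen. It rose in transformed cells by 3.45, its controls were lower than every other library, and the highest libraries were those of metastasizing cells at atmospheric oxygen. Its difference of -5.20 (standard error 0.76, adjusted p = 0.000909, limma) was the lowest among the genes of at least 10 TPM.

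CHAC1, which degrades glutathione, holds TGATGNAA, the letters of the amino acid response element, in the 250 bases before its start (GRCh38.p14, chr15:40953221-40953470, plus strand), here on the opposite strand and in capitals:
CHAC1: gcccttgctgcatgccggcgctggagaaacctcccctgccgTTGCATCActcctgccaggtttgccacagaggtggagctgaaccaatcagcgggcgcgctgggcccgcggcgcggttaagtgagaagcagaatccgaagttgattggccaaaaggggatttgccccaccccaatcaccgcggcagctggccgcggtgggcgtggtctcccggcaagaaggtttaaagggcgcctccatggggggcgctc

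TGATGNAA was found on either strand in 2 of the 7 called members with an entry and in 4 of 20 members with one, against 1.37% of all promoters searched. CHAC1 was at 0.714 and 1.56 TPM at atmospheric and 14.8 and 7.24 TPM at 3% oxygen in transformed cells, and 4.05 and 2.40 against 0.574 and 1.31 TPM in metastasizing cells. The transformed libraries at 3% oxygen were the highest, above both of their controls, and the metastasizing libraries at 3% oxygen lay below theirs. Its difference of -4.16 (standard error 0.94, adjusted p = 0.00898, limma) was called in only 1 of the 8 fits that leave out a library (without metastasizing replicate b at 3% oxygen), at values between -4.65 and -3.67. TRIB3, a pseudokinase that dampens ATF4, measured 17.2 and 16.6 TPM at atmospheric and 79.8 and 83.7 TPM at 3% oxygen in transformed cells, and 39.3 and 33.6 against 65.9 and 50.05 TPM in metastasizing cells, with no overlap between oxygen levels in either stage and a difference of -1.59 (standard error 0.23, adjusted p = 0.000909, limma). VLDLR, a lipoprotein receptor, rose in transformed cells by 2.68 and differed by -2.03 (standard error 0.28, adjusted p = 0.000636, limma), and SESN2, which restrains mTORC1, by -1.69 (standard error 0.22, adjusted p = 0.000426, limma).

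ATF4 itself differed by -1.04 (standard error 0.18, adjusted p = 0.00251, limma), from 320.3 and 321 TPM at atmospheric and 671 and 564 TPM at 3% oxygen in transformed cells, and 441 and 409.8 against 359 and 438 TPM in metastasizing cells. ATF3, another stress factor of the family, differed by -2.54. The calls of NUPR1, VLDLR, SESN2 and TRIB3 held whichever library was left out, and those of CHAC1, ATF3, STC2 and ATF4 did not. The list median was -1.32 without metastasizing replicate a and -0.86 without metastasizing replicate b at 3% oxygen. INHBE, a secreted inhibin subunit outside the list, was at 0.208 and 0.694 TPM at atmospheric and 19.5 and 18.0 TPM at 3% oxygen in transformed cells, and 9.11 and 8.33 against 10.3 and 2.85 TPM in metastasizing cells, with a difference of -5.00 (standard error 0.65, adjusted p = 0.000471, limma). ASS1, which makes argininosuccinate for arginine synthesis, rose in transformed cells by 3.11 and measured 24.9 and 24.1 TPM at atmospheric and 219 and 213 TPM at 3% oxygen in transformed cells, and 87.2 and 68.8 against 268 and 119 TPM in metastasizing cells. All 3% libraries of ASS1 lay above the controls of their stage, and the difference of -1.91 (standard error 0.41, adjusted p = 0.00686, limma) was called in only 2 of the 8 fits without a library (without metastasizing replicate a or b at 3% oxygen), at values between -2.49 and -1.33.

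Cholesterol and fatty acid synthesis genes differed mainly through their level at atmospheric oxygen. There, 13 of 25 members were higher in metastasizing than in transformed cells (median 1.07), against 2.29% of all genes. At 3% oxygen none was called (median 0.19). The response was lower in metastasizing cells for 8 members (32.0%, against 5.58% of all genes) and higher for none, with a median difference of -1.01. INSIG1, which retains the sterol sensor in the endoplasmic reticulum, measured 31.6 and 33.3 TPM in transformed cells at atmospheric oxygen, 59.6 and 64.1 TPM in transformed cells at 3% oxygen, 212 and 227 TPM in metastasizing cells at atmospheric oxygen and 67.3 and 109 TPM in metastasizing cells at 3% oxygen. Its metastasizing controls stood above all other libraries, and it fell by 1.35 there, while the transformed response of 0.92 was positive and not called. The difference was -2.27 (standard error 0.24, adjusted p = 0.000156, limma).

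SCD, the stearoyl-CoA desaturase, was at 86.3 and 88.8 TPM at atmospheric and 217 and 158 TPM at 3% oxygen in transformed cells, and 463 and 505 against 126 and 352 TPM in metastasizing cells, with a difference of -2.27 (standard error 0.48, adjusted p = 0.00610, limma) that was called in only 2 of the 8 fits without a library (without metastasizing replicate a or b at 3% oxygen), between -3.01 and -1.54. STARD4, a sterol carrier, differed by -1.82, the desaturase FADS1 by -1.46, and SREBF2, which encodes the factor that drives sterol synthesis, by -1.27. The enzymes CYP51A1 and DHCR7 followed with -1.20 and -1.27. The letters of the sterol regulatory element, TCACNCCAC, were found on either strand in 1 of the 7 called members with a promoter entry and in 1 of 19 members with one, against 0.844% of all promoters searched. In metastasizing cells 5 members fell with hypoxia, against 4.43% of all genes, and the response of all 25 was below 0. The call of DHCR7 was lost without 7 of the 8 libraries. The list median was -1.26 without metastasizing replicate b at 3% oxygen and -0.65 without replicate a.

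Chaperones went the other way. Of 13 heat shock genes, 7 had a higher response in metastasizing cells (53.8%, against 2.8% of all genes), none was called lower, and the median difference was 1.06. The median response was -0.63 in transformed and 0.39 in metastasizing cells. Without single libraries 4 to 8 members were called higher, fewest without metastasizing replicate a at 3% oxygen, with medians of 0.87 to 1.23. HSPB8, a small heat shock protein of selective autophagy, measured 5.54 and 5.15 TPM in transformed cells at atmospheric oxygen, 0.646 and 0.899 TPM in transformed cells at 3% oxygen, 0.355 and 0.388 TPM in metastasizing cells at atmospheric oxygen and 3.39 and 6.98 TPM in metastasizing cells at 3% oxygen. It fell by 2.21 in transformed cells and rose by 2.63 in metastasizing cells, with no overlap between oxygen levels in either stage. Its difference of 4.84 (standard error 0.35, adjusted p = 1.60e-05, limma) was called in all 14 alternatives and whichever library was left out.

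HSP90AA1, the inducible HSP90, had 1509 and 1496 TPM at atmospheric and 1115 and 951 TPM at 3% oxygen in transformed cells, and 838 and 931 against 1489 and 1395 TPM in metastasizing cells, and differed by 1.25 (standard error 0.13, adjusted p = 0.000147, limma). HSPD1 and HSPE1, the mitochondrial chaperonin pair, differed by 1.25 and 1.06, HSP90AB1 by 1.12 and HSPA5, the chaperone of the endoplasmic reticulum, by 1.08. HSPA8, the constitutive cytosolic HSP70, is shown for its heat shock elements, the letters GAA, TTC and GAA with 2 bases between each, on either strand and in capitals, in the 250 bases before its start (GRCh38.p14, chr11:123062137-123062386, minus strand):
HSPA8: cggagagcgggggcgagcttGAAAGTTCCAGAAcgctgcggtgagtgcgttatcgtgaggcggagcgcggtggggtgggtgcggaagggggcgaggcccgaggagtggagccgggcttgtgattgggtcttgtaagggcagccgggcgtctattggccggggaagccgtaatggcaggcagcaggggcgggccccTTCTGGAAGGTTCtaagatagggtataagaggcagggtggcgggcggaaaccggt

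HSPA8 was the only one of 12 list members with an entry that held these letters, which 0.275% of all promoters searched held. It measured 3893 and 3671 TPM at atmospheric and 2574 and 1882 TPM at 3% oxygen in transformed cells, and 2367 and 2408 against 4391 and 2715 TPM in metastasizing cells. In metastasizing cells both 3% libraries lay above both controls, in transformed cells both lay below, and the difference was 1.31 (standard error 0.27, adjusted p = 0.00599, limma). It was called in only 2 of the 8 fits without a library (without transformed replicate a or metastasizing replicate b at 3% oxygen), between 0.97 and 1.66. HSPB1 and CRYAB, also small heat shock proteins, had differences of -0.48 and -0.078 and were not called. Summed over the 13 genes, transformed cells had 9352 and 9059 TPM at atmospheric and 6259 and 5154 TPM at 3% oxygen. Metastasizing cells had 6485 and 6692 TPM at atmospheric and 10323.7 and 7744.5 TPM at 3% oxygen.

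The largest positive differences were in ID1 and ID3, inhibitors of bHLH factors that BMP signalling induces. ID1 (chr20:30193086-30194318 in GRCh37) measured 53.9 and 46.0 TPM in transformed cells at atmospheric oxygen, 2.62 and 2.74 TPM in transformed cells at 3% oxygen, 6.73 and 4.71 TPM in metastasizing cells at atmospheric oxygen and 21.1 and 13.5 TPM in metastasizing cells at 3% oxygen. It fell by 3.98 in transformed cells and had a response of 1.502 in metastasizing cells that was not called (adjusted p = 0.0189). The difference was 5.48 (standard error 0.57, adjusted p = 0.000147, limma). ID3 (chr1:23884417-23885992 in GRCh37) was at 186 and 168 TPM at atmospheric and 7.46 and 7.63 TPM at 3% oxygen in transformed cells, and 31.8 and 24.6 against 90.0 and 33.8 TPM in metastasizing cells, with a difference of 5.43 (standard error 0.53, adjusted p = 0.000107, limma).

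For both ID genes the order of the stages turned round between oxygen levels. At atmospheric oxygen the difference of metastasizing from transformed cells was -3.03 for ID1 and -2.64 for ID3, and at 3% oxygen it was 2.45 and 2.79. BMP4, a ligand of the pathway, was called in the other direction, at 18.8 and 17.8 TPM at atmospheric and 19.6 and 19.3 TPM at 3% oxygen in transformed cells, and 15.9 and 16.1 against 0.866 and 1.94 TPM in metastasizing cells. The 6 other libraries of BMP4 lay between 15.9 and 19.6 TPM and both metastasizing libraries at 3% oxygen were under 2 TPM, a difference of -3.26 (standard error 0.32, adjusted p = 0.000108, limma). No other of the 24 BMP and TGF-beta genes tested was called, ID2 stood at -0.64, and the median was 0.17. These were 2 of 24 called higher (8.33%, against 2.8% of all genes) and 1 lower (4.17%, against 5.58%). Each call held whichever library was left out. The median was -0.15 without metastasizing replicate a at 3% oxygen, and 0.43 without replicate b.

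ACTG2, a smooth muscle actin, and MMP1, interstitial collagenase, followed. ACTG2 (chr2:74119441-74146992 in GRCh37) was at 168 and 171 TPM at atmospheric and 9.82 and 11.0 TPM at 3% oxygen in transformed cells, and 33.7 and 31.7 against 106 and 65.3 TPM in metastasizing cells, without overlap between any of the 4 groups. It fell by 3.96 in transformed cells and rose by 1.34 in metastasizing cells, a difference of 5.30 (standard error 0.26, adjusted p = 2.35e-06, limma). MMP1 (chr11:102660132-102668891 in GRCh37) measured 407 and 399 TPM in transformed cells at atmospheric oxygen, 385 and 788 TPM in transformed cells at 3% oxygen, 107 and 112 TPM in metastasizing cells at atmospheric oxygen and 3467 and 6422 TPM in metastasizing cells at 3% oxygen. Both metastasizing libraries at 3% oxygen exceeded every other library by more than 4-fold, and the difference was 4.97 (standard error 0.48, adjusted p = 0.000104, limma).

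ESM1, INHBA and LCP1 were highest in both metastasizing libraries at 3% oxygen, and CRIP1 in replicate b of them. ESM1, a secreted proteoglycan of endothelial cells and tumours, measured 4.57 and 2.47 TPM at atmospheric and 7.11 and 13.3 TPM at 3% oxygen in transformed cells, and 0.801 and 1.02 against 44.7 and 118 TPM in metastasizing cells, a difference of 4.30 (standard error 0.58, adjusted p = 0.000595, limma). INHBA, the activin A subunit, was at 9.76 and 7.88 TPM at atmospheric and 2.36 and 3.16 TPM at 3% oxygen in transformed cells, and 3.27 and 3.04 against 51.1 and 11.0 TPM in metastasizing cells, a difference of 4.26 (standard error 0.70, adjusted p = 0.00179, limma), and LCP1, the actin bundler L-plastin, was at 3.37 and 3.42 TPM at atmospheric and 1.20 and 2.48 TPM at 3% oxygen in transformed cells, and 1.83 and 3.50 against 62.4 and 16.7 TPM in metastasizing cells, a difference of 4.22 (standard error 0.70, adjusted p = 0.00187, limma). CRIP1, a LIM protein, had 7.40 and 7.27 TPM at atmospheric and 4.21 and 8.30 TPM at 3% oxygen in transformed cells, and 0.372 and 0.466 against 6.82 and 28.6 TPM in metastasizing cells, and its difference of 4.27 (standard error 0.85, adjusted p = 0.00467, limma) was called in 3 of the 8 fits without a library (without transformed replicate b or metastasizing replicate a or b at 3% oxygen), between 3.28 and 5.27. In each of these 4 genes the 2 metastasizing libraries at 3% oxygen were more than 2-fold apart.

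**Figure D3:**
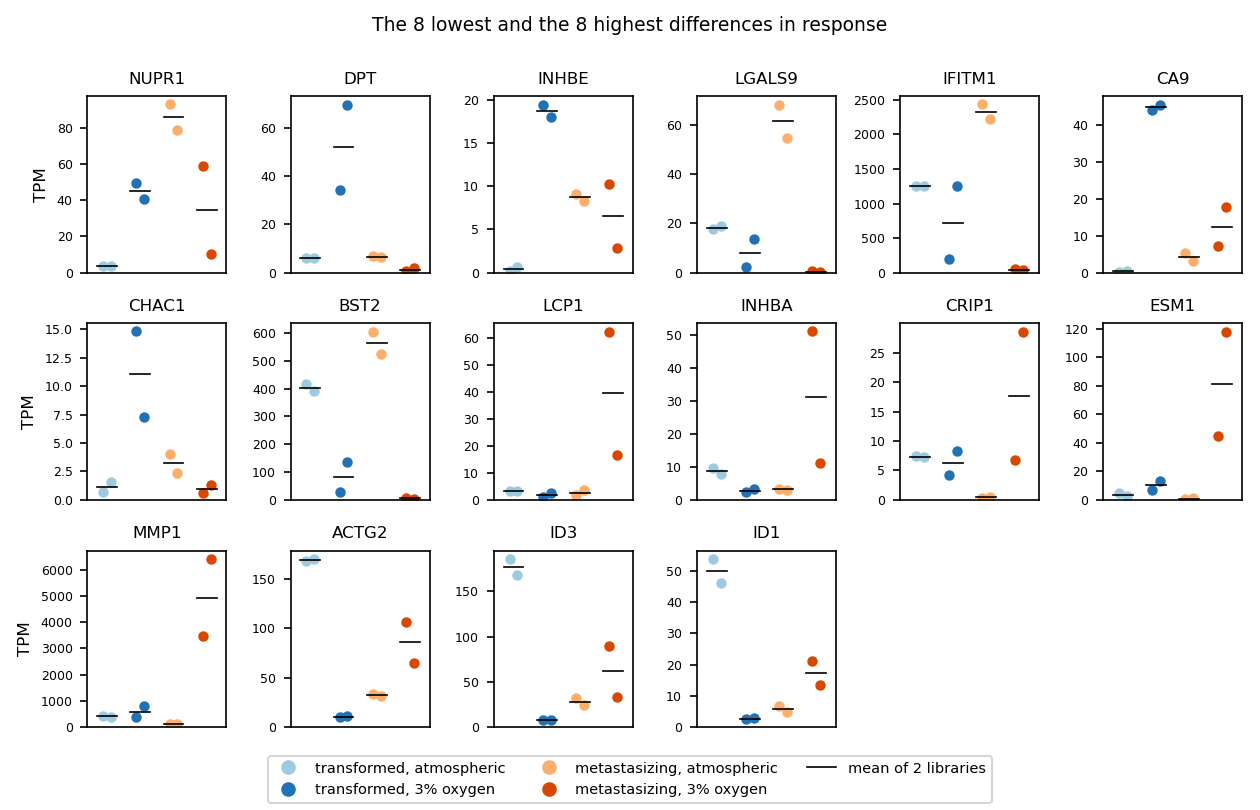
Points show TPM of the 2 libraries of each group, with a line at the group mean, for the 8 genes of at least 10 TPM with the lowest (NUPR1 to BST2) and the 8 with the highest (LCP1 to ID1) difference between the responses, one panel per gene with its own axis from 0. ID1, ID3 and ACTG2 are highest in transformed cells at atmospheric oxygen, and MMP1 is highest in metastasizing cells at 3% oxygen (3467 and 6422 TPM).

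Several genes responded in opposite directions with both responses called. DPT, a small matrix protein, measured 6.11 and 6.18 TPM at atmospheric and 34.2 and 69.7 TPM at 3% oxygen in transformed cells, and 6.85 and 6.29 against 0.674 and 1.73 TPM in metastasizing cells. Controls of the 2 stages were level, whereas at 3% oxygen the transformed libraries were above 30 TPM and the metastasizing ones under 2 TPM, a difference of -5.02 (standard error 0.59, adjusted p = 0.000281, limma). COL11A1, a chain of a fibrillar collagen, had 23.5 and 24.5 TPM at atmospheric and 123 and 73.4 TPM at 3% oxygen in transformed cells, and 94.7 and 104 against 29.3 and 36.5 TPM in metastasizing cells, a difference of -3.55 (standard error 0.31, adjusted p = 5.75e-05, limma). Of the others, ACKR4, a scavenging chemokine receptor, differed by -3.94, the cation channel TRPM8 by -4.02, from values up to 2.39 TPM, and the carboxypeptidase CPVL, in the positive direction, by 4.18.

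Matrix genes as a list had no common direction. Of 26 collagens, matrix proteins and proteases, 4 were called higher (15.4%, against 2.8% of all genes) and 3 lower (11.5%, against 5.58%). The median difference was -0.0069, which became 0.12 with median-ratio rescaling. MMP2, which cleaves basement membrane collagen, was at 86.2 and 89.2 TPM at atmospheric and 185 and 159.6 TPM at 3% oxygen in transformed cells, and 73.7 and 72.0 against 32.8 and 42.0 TPM in metastasizing cells, so the 3% libraries lay above the controls in transformed and below them in metastasizing cells, and differed by -1.93 (standard error 0.20, adjusted p = 0.000160, limma). COL12A1, a fibril-associated collagen, differed by -1.86 (standard error 0.22, adjusted p = 0.000281, limma) and COL5A2 by -1.11. Among the higher genes POSTN, a matricellular protein, measured 5.43 and 5.28 TPM at atmospheric and 0.397 and 0.0907 TPM at 3% oxygen in transformed cells, and 0.574 and 0.847 against 0.4202 and 0.277 TPM in metastasizing cells, so only the transformed controls were above 1 TPM, and it fell by 3.01 there. Its difference was 2.50 (standard error 0.32, adjusted p = 0.000426, limma). MMP3, stromelysin, differed by 2.35 and COL6A3 by 1.16. LOXL4, a lysyl oxidase, had 2.48 and 2.17 TPM at atmospheric and 6.68 and 5.38 TPM at 3% oxygen in transformed cells, and 24.6 and 23.9 against 3.93 and 7.08 TPM in metastasizing cells, and its difference of -3.30 (standard error 0.30, adjusted p = 7.61e-05, limma) went with a difference of metastasizing from transformed cells of 3.13 at atmospheric and -0.17 at 3% oxygen. Without metastasizing replicate b at 3% oxygen the list median was -0.039. The calls of COL5A2, COL6A3 and MMP3 were lost without 4, 5 and 5 of the 8 libraries.

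Fibroblast markers were lower in the comparison where called. Of 14 markers, 5 had a lower response in metastasizing cells (35.7%, against 5.58% of all genes), none was called higher, and the median was -1.55. It was -0.82 without metastasizing replicate a and -2.17 without metastasizing replicate b at 3% oxygen. LUM, a proteoglycan of the collagen matrix, was at 33.2 and 39.1 TPM at atmospheric and 52.5 and 69.7 TPM at 3% oxygen in transformed cells, and 57.9 and 64.1 against 4.00 and 17.1 TPM in metastasizing cells. DCN, another, was at 23.2 and 23.5 TPM at atmospheric and 32.0 and 31.1 TPM at 3% oxygen in transformed cells, and 22.4 and 29.8 against 2.23 and 7.11 TPM in metastasizing cells. For both genes the metastasizing libraries at 3% oxygen were the lowest, and replicate a was the lower of the 2. The differences were -3.53 (standard error 0.63, adjusted p = 0.00253, limma) for LUM and -2.96 (standard error 0.48, adjusted p = 0.00156, limma) for DCN.

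FAP, a surface protease, measured 18.2 and 19.8 TPM at atmospheric and 71.6 and 85.3 TPM at 3% oxygen in transformed cells, and 32.9 and 37.7 against 18.0 and 25.3 TPM in metastasizing cells, with a rise of 2.01 in transformed cells and a difference of -2.72 (standard error 0.24, adjusted p = 5.75e-05, limma). PDGFRB differed by -2.02 and TWIST1, a mesenchymal bHLH factor, by -1.96, while COL1A1 and VIM stood at 0.30 and 0.49 and were not called. Without single libraries the median of the markers stayed between -2.17 and -0.82. The call of LUM was lost without any 1 of 4 libraries, transformed replicates a and b at atmospheric oxygen and replicate b of transformed (3%) and metastasizing (atmospheric) cells, and that of TWIST1 without 7 of the 8 libraries. Among the other cell type markers, endothelial TIE1 was at 0.238 and 0.376 TPM at atmospheric and 0.757 and 0.882 TPM at 3% oxygen in transformed cells, and 0.206 and 0.207 against 4.73 and 19.9 TPM in metastasizing cells and differed by 3.16 (standard error 0.69, adjusted p = 0.00720, limma), while epithelial ITGB4 measured 1.06 and 0.710 TPM at atmospheric and 5.64 and 5.38 TPM at 3% oxygen in transformed cells, and 1.60 and 1.28 against 1.58 and 1.62 TPM in metastasizing cells and differed by -2.01 (standard error 0.46, adjusted p = 0.00991, limma). The call of TIE1 was lost without 6 of the 8 libraries and that of ITGB4 without any 1 of the 8.

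Interferon-stimulated genes, which encode antiviral proteins, had fitted responses below 0 in both stages, and more of them were called in metastasizing cells. Of 47 tested, 43 were called down there (median -3.62) and 4 in transformed cells (median -1.54), against 4.43% and 2.49% of all genes. No member had a fitted response above 0 in either stage. The difference was below 0 for all 47, with a median of -1.94. The difference was called for 4 members (8.51%, against 5.58% of all genes called lower): IFITM1, BST2, IFITM2 and STAT2.  The transformed libraries at 3% oxygen disagreed, with a median level of 4.27 (log2) over the 47 genes in replicate a and 6.36 in replicate b, against 6.87 in both controls, whereas the metastasizing libraries at 3% oxygen were at 3.35 and 3.61 against 6.95 and 7.05 in their controls.

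The count turned on the transformed libraries at 3% oxygen. Without transformed replicate a at 3% oxygen 41 members were called lower (median -3.09), and without replicate b 9 were (median -0.88). RSAD2, which makes an antiviral nucleotide, was at 1.59 and 36.9 TPM in these libraries. IFITM2, which blocks virus entry, was close in both replicates, with 79.3 and 81.0 TPM at atmospheric and 59.2 and 77.0 TPM at 3% oxygen in transformed cells, and 198 and 183 against 22.8 and 26.0 TPM in metastasizing cells, and differed by -2.70 (standard error 0.18, adjusted p = 1.18e-05, limma). STAT2 measured 173 and 194 TPM at atmospheric and 96.5 and 167 TPM at 3% oxygen in transformed cells, and 198 and 207 against 21.9 and 30.6 TPM in metastasizing cells and differed by -2.42 (standard error 0.31, adjusted p = 0.000439, limma). Both calls held whichever library was left out.

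BST2, which tethers virus particles to the cell surface, is shown for 2 overlapping copies of GAAA and GAAA with 2 bases between, the core letters of the interferon-stimulated response element, in capitals, in the 250 bases before its start (GRCh38.p14, chr19:17405631-17405880, minus strand):
BST2: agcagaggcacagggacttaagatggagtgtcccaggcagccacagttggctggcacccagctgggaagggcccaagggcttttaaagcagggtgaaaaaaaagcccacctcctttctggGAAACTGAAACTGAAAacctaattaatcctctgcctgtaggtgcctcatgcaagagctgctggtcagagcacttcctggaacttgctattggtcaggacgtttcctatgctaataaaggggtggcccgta

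These letters were found on either strand in 2 of the 3 called members with an entry and in 20 of 37 members with one, against 2.39% of all promoters searched. BST2 measured 417 and 391 TPM in transformed cells at atmospheric oxygen, 29.9 and 137 TPM in transformed cells at 3% oxygen, 605 and 524 TPM in metastasizing cells at atmospheric oxygen and 6.13 and 4.63 TPM in metastasizing cells at 3% oxygen. All 3% libraries lay below all controls, and those of metastasizing cells lay at least 4-fold below those of transformed cells. Its difference was -3.95 (standard error 0.71, adjusted p = 0.00266, limma), from responses of -2.64 in transformed and -6.59 in metastasizing cells, both called.

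IFITM1, a relative of IFITM2, was at 1257 and 1251 TPM at atmospheric and 191 and 1251 TPM at 3% oxygen in transformed cells, and 2432 and 2221 against 47.4 and 31.7 TPM in metastasizing cells, and transformed replicate b at 3% oxygen equalled its controls. The difference was -4.53 (standard error 0.86, adjusted p = 0.00368, limma). LGALS9, a galectin that interferon also induces, was at 17.7 and 18.9 TPM at atmospheric and 2.12 and 13.8 TPM at 3% oxygen in transformed cells, and 68.3 and 54.6 against 0.598 and 0.166 TPM in metastasizing cells, a difference of -4.55 (standard error 0.96, adjusted p = 0.00627, limma). For IFITM1 and BST2 the call was lost without any 1 of the 4 libraries at atmospheric oxygen. Over all 8 fits without a library the values lay between -5.88 and -3.17 for IFITM1 and -5.04 and -2.86 for BST2. LGALS9 was called in only 2 of the 8 fits without a library (without replicate a at 3% oxygen of either stage), between -5.78 and -3.33.

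**Figure D4:**
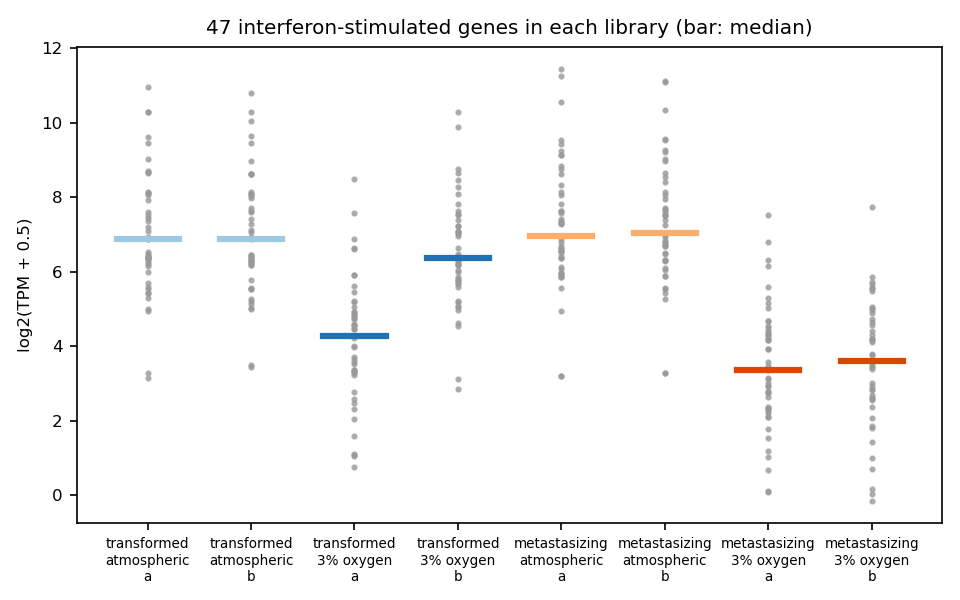
Each grey point is 1 of 47 interferon-stimulated genes in 1 of the 8 libraries, as log2(TPM + 0.5), and the bar is the median of the library. The medians of both metastasizing libraries at 3% oxygen are 3.35 and 3.61, and the 2 transformed libraries at 3% oxygen lie apart, at 4.27 for replicate a and 6.36 for replicate b.

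Antigen presentation genes had a median difference of -0.87 over 15 members, all below 0. In metastasizing cells 8 of them were called down, against 1 in transformed cells, where only 1 of the 15 had a fitted response above 0. Over all genes 4.43% and 2.49% were called down. Only B2M, the light chain of MHC class I, was called in the comparison (6.67%, against 5.58% of all genes called lower). Without transformed replicate a at 3% oxygen 4 members were called lower with a median of -1.16, and without transformed replicate b at 3% oxygen the median was -0.51. B2M was at 5184 and 5267 TPM at atmospheric and 3319.7 and 5365 TPM at 3% oxygen in transformed cells, and 9366 and 10292 against 2661 and 2159 TPM in metastasizing cells, with metastasizing controls above and metastasizing 3% libraries below all others, and a difference of -1.73 (standard error 0.26, adjusted p = 0.00119, limma). Its call held whichever library was left out.

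Of 28 inflammatory and NF-kB target genes, 9 rose in transformed cells (median 1.63) and 7 rose in metastasizing cells (median 1.49). Over all genes 4.71% and 2.95% rose. In the comparison 1 was called (3.57% higher, against 2.8% of all genes), with a median of -0.063, or 0.046 with median-ratio rescaling. The direction of that median turned with single libraries, to -1.02 without transformed replicate a and 0.76 without transformed replicate b at 3% oxygen. TNFAIP2 was at 51.4 and 49.0 TPM at atmospheric and 56.5 and 83.8 TPM at 3% oxygen in transformed cells, and 13.4 and 12.4 against 47.1 and 57.5 TPM in metastasizing cells, and its metastasizing controls were the lowest libraries. Its difference was 1.52 (standard error 0.28, adjusted p = 0.00293, limma), lost without either transformed replicate or without metastasizing replicate b at atmospheric oxygen. CXCL8, the neutrophil attractant, had 31.6 and 31.1 TPM at atmospheric and 191 and 1385 TPM at 3% oxygen in transformed cells, and 100.2 and 108 against 292 and 699.6 TPM in metastasizing cells, a difference of -1.90 (adjusted p = 0.210, limma) with the transformed 3% libraries more than 7-fold apart. ICAM1, an adhesion molecule, rose in both stages, by 2.28 and 1.56, and its difference of -0.72 was not called. The colony-stimulating factors CSF2 and CSF3 and the superoxide dismutase SOD2 had differences of -0.95, 0.89 and -1.87 and were not called. Without transformed replicate a at 3% oxygen 9 members of the list were called lower.

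Genes of RAS-MAPK output split. Of 22 tested, FOSL1 and CCND1 were called higher and SPRY1 and ETV1 lower, with a median of 0.014. These were 9.09% in each direction, against 2.8% higher and 5.58% lower of all genes. CCND1, cyclin D1, measured 80.8 and 82.9 TPM at atmospheric and 66.5 and 63.1 TPM at 3% oxygen in transformed cells, and 50.5 and 49.3 against 147 and 107 TPM in metastasizing cells, rose in metastasizing cells by 1.32 and differed by 1.66 (standard error 0.21, adjusted p = 0.000409, limma). SPRY1, a feedback inhibitor of receptor tyrosine kinases, was at 0.815 and 0.496 TPM at atmospheric and 2.18 and 2.72 TPM at 3% oxygen in transformed cells, and 1.91 and 2.55 against 0.301 and 0.367 TPM in metastasizing cells, opposite in the 2 stages, and differed by -3.06 (standard error 0.30, adjusted p = 0.000104, limma). FOSL1, an AP-1 subunit, differed by 1.24 and ETV1, an ETS factor, by -2.75, and these calls were lost without 7 and 6 of the 8 libraries. HRAS itself was not called, at 2.92 (adjusted p = 0.0193, limma), and its 2 metastasizing libraries at 3% oxygen were more than 5-fold apart.

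Targets of p53 were lower for 4 of 20 members (against 5.58% of all genes), with a median of -0.64 and none called higher. TP53INP1, a stress-induced nuclear protein, differed by -2.21 and its call held whichever library was left out. GDF15, a stress cytokine, was at 1.27 and 1.66 TPM at atmospheric and 2.95 and 3.27 TPM at 3% oxygen in transformed cells, and 22.2 and 16.1 against 6.80 and 1.35 TPM in metastasizing cells. The difference of metastasizing from transformed cells was 3.31 at atmospheric and 0.030 at 3% oxygen, and the difference between the responses was -3.28 (standard error 0.69, adjusted p = 0.00614, limma). BBC3, which encodes PUMA, and CDKN1A, which encodes p21, differed by -3.17 and -2.07. The calls of GDF15, BBC3 and CDKN1A were lost without 6, 3 and 5 of the 8 libraries. In both stages SV40 is present, whose Large-T antigen binds p53.

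Other lists showed few or no calls. None of 35 replication and mitosis genes was called in the comparison or in either response, with a median difference of -0.18 and the largest absolute value in AURKA (1.24, adjusted p = 0.0654, limma), which lies at chr20:54944445-54967393 in GRCh37, beyond 40 Mb on chromosome 20. Without metastasizing replicate a at 3% oxygen the replication median was 0.061 with 2 called higher, and without replicate b it was -0.35 with 1 called lower. Of 52 ribosomal protein genes none was called (median 0.16), and the largest value was that of RPS7 (1.68, adjusted p = 0.0130, limma). At an unadjusted p under 0.05 in limma there were 14 of 35 replication genes, 17 of 52 ribosomal genes and none of the 13 mitochondrially encoded ones. Over all genes it was 4830 of 12590. Of 74 nuclear-encoded subunits of the respiratory chain and ATP synthase 1 was called (1.35%), the ATP synthase beta subunit ATP5F1B, at 1041 and 1036 TPM at atmospheric and 654 and 590.2 TPM at 3% oxygen in transformed cells, and 602 and 627 against 676 and 846 TPM in metastasizing cells, with a difference of 1.04 (standard error 0.14, adjusted p = 0.000685, limma) that was lost without transformed or metastasizing replicate b at 3% oxygen. Over all genes 2.8% were called higher. The median over these subunits was 0.10, or -0.022 without metastasizing replicate b at 3% oxygen. All 13 mitochondrially encoded genes had a difference below 0 (median -0.92) and none was called. That median was -0.37 without transformed replicate a, -1.61 without transformed replicate b, -1.41 without metastasizing replicate a and -0.50 without metastasizing replicate b at atmospheric oxygen. Their share of TPM was 1.16% and 2.42% in the transformed and 2.04% and 3.76% in the metastasizing controls. In each stage replicate b of the controls had the higher share. The largest absolute value was that of MT-ND4L (-1.23). Among 2 leukocyte markers tested, LAPTM5 had the larger one (-0.43) and none was called.

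**Figure D5:**
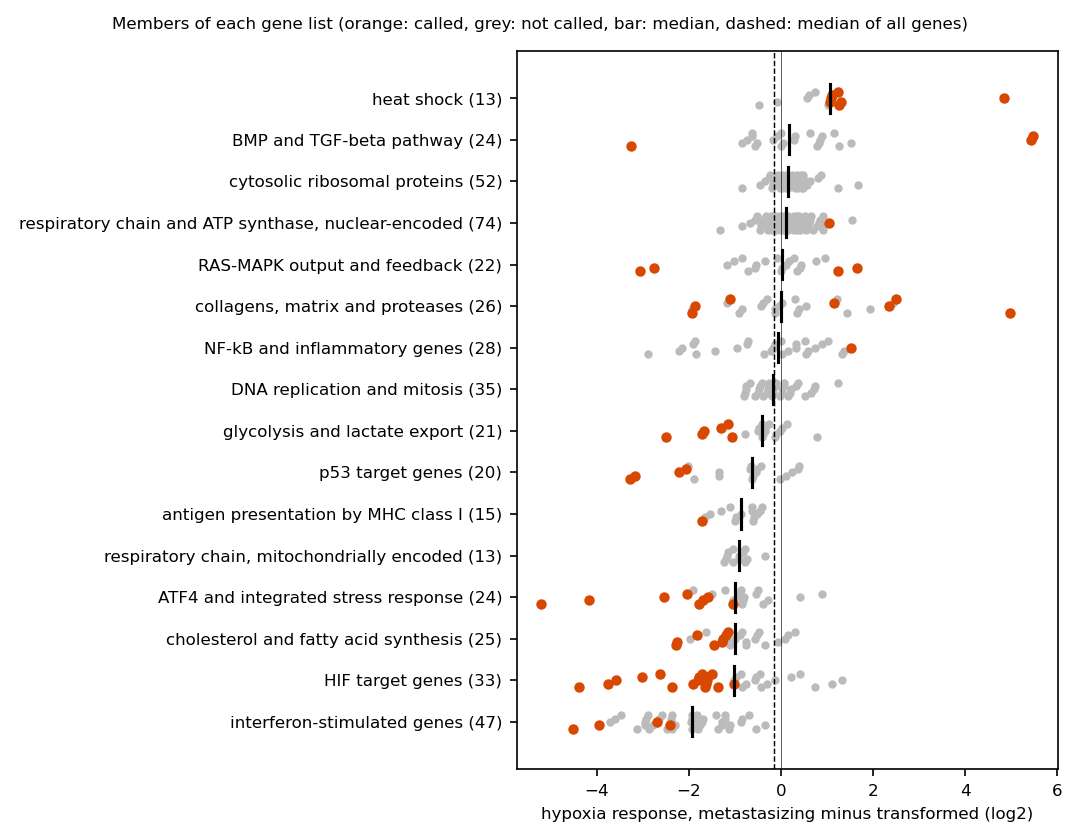
Each point is a gene of a list (number tested in parentheses), placed by its hypoxia response in metastasizing minus transformed cells on the log2 scale, with called genes in orange, the list median as a bar and the median of all genes (-0.15) as a dashed line. Interferon-stimulated, HIF target, cholesterol and ATF4 genes have medians of -1.94, -1.02, -1.01 and -0.99, and heat shock genes one of 1.06.

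Of the remaining genes the study names, AKR1B1, aldose reductase, measured 232 and 241 TPM at atmospheric and 760.0 and 1552 TPM at 3% oxygen in transformed cells, and 346 and 326 against 593 and 622 TPM in metastasizing cells, and its rise of 2.20 in transformed cells was called while the difference of -1.34 (adjusted p = 0.0260, limma) was not. STYK1, a pseudokinase-like receptor, was at 29.7 and 2.56 TPM at atmospheric and 2.52 and 2.28 TPM at 3% oxygen in transformed cells, and 2.81 and 81.0 against 4.03 and 3.61 TPM in metastasizing cells. A single library in each control group stood far above the rest, so its difference of -0.20 (adjusted p = 0.947, limma) rests on those 2 libraries, and it became 1.45 without transformed replicate b and 2.11 without metastasizing replicate b at atmospheric oxygen.

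The position of the called genes was also compared. On chromosome 20 from 40 Mb in GRCh37, 32 of 146 genes tested were called higher (21.9%, against 2.8% of all genes) and 2 lower, with a median difference of 0.80. On the same chromosome before 40 Mb it was 7 higher and 7 lower of 187, with a median of 0.093. The median of the 146 genes, taken as the deviation of each library from the mean of the 8, was -0.52 and -0.64 in the metastasizing controls, 0.20 and 0.50 in the metastasizing 3% libraries and 0.055 to 0.18 in the 4 transformed libraries. The region was chosen after its values were seen and its boundary was set at a round figure, so no test is given. Chromosome 20 was not alone in this. Of 236 windows of 10 Mb with at least 20 genes tested, 11 had a median difference more than 0.5 away from that of all genes. On chromosome 16 from 80 to 90 Mb 14 of 70 genes were called higher and none lower, with a median of 0.73. There too the metastasizing controls were the lowest libraries, at median deviations of -0.44 and -0.64, against 0.00074 and 0.15 in metastasizing cells at 3% oxygen and 0.083 to 0.47 in the transformed libraries. A difference in chromosome copies or in clones between the plates was not tested.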

How the data were processed

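RNA of 8 libraries (TruSeq Stranded mRNA) was sequenced by the authors on a HiSeq2500, and kallisto 0.42.1 with GRCh37 transcripts gave TPM per transcript. TPM are the deposited unit. The deposited table lists 180253 transcripts, of which 151453 were matched by Ensembl identifier without version to GENCODE annotation and summed per gene, which kept 88.2% to 89.3% of TPM in a library. The authors' own test used estimated counts, a step not repeated because the table holds TPM, which keep no depth. Groups followed the cell type and oxygen labels.

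Genes were fitted with limma 3.58.1 in R 4.3.3 on log2(TPM + 0.5), with a trend, over all 16 libraries and 8 groups (8 residual degrees of freedom) and Benjamini-Hochberg adjustment over 12590 genes. A fold change on this scale understates that of low genes. Calls needed an adjusted p under 0.01 and a difference beyond 1. On simulated data with known answers, 22, 36, 38 and 45 of 50 changed genes were found at log2 sizes of 1.5, 2, 3 and 4, and 1 of 12390 unchanged genes was called. The simulation gave each gene the same spread in every group, unlike the real libraries, so these rates need not hold for this comparison. For 2 libraries against 2, an exact permutation test cannot go below 0.333, so none was used.

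Named genes were the 8 highest and 8 lowest differences among called genes of at least 10 TPM whose library differences did not overlap, the 6 strongest opposite responses, 4 genes each called between the stages at 1 oxygen level alone, the 2 highest and 2 lowest called members of each list (the largest value where none was called), genes the study names, and 4 genes at the filter. The members and lists were chosen with earlier results of these data known. Alternatives were 2 pseudocounts, 2 filters, 2 rescalings, the 8 libraries alone, replicate blocks, no trend, weights, another threshold, all annotated genes and each library left out. Promoters were the RefSeq GRCh38.p14 entries matched by symbol. The labels do not say whether the letters a and b pair libraries. The correlation of same-letter deviations between oxygen levels was -0.082 in transformed and -0.11 in metastasizing cells, which cannot settle it. 1 called member of the cholesterol list is not reported here by name.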

Additional observations from a re-analysis of the deposited data

Results flagged for a closer look

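For 51 of the genes named by the rule, the hypoxia response differed between metastasizing and transformed cells by the test of that difference (limma, adjusted p under 0.01 and beyond 1 on the log2 scale). The values are the response in metastasizing minus that in transformed cells. A call kept without a library is no check of the spread in that library's group.

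Called whichever library was left out and lower were NUPR1 -5.20, DPT -5.02, INHBE -5.00, CA9 -4.38, TRPM8 -4.02, ACKR4 -3.94, PPFIA4 -3.77, COL11A1 -3.55, LOXL4 -3.30, BMP4 -3.26, SPRY1 -3.06, DCN -2.96, INSIG1 -2.27, MMP2 -1.93, COL12A1 -1.86, BNIP3 -1.80, B2M -1.73, SLC2A3 -1.71 and BNIP3L -1.60. Called whichever library was left out and higher were CCND1 1.66, POSTN 2.50, CPVL 4.18, LCP1 4.22, INHBA 4.26, ESM1 4.30, HSPB8 4.84, MMP1 4.97, ACTG2 5.30, ID3 5.43 and ID1 5.48. In the fit of the 8 libraries alone the lower genes NUPR1, INHBE, CA9, ACKR4, SPRY1, DCN, INSIG1, BNIP3, B2M and BNIP3L were not called. Nor were the higher genes CCND1, POSTN, LCP1, INHBA and ESM1, while the other genes of this paragraph were. LCP1 was also not called with the replicate block (letters within stage).

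The call was lost without at least 1 library for the lower genes LGALS9 -4.55, IFITM1 -4.53, CHAC1 -4.16, BST2 -3.95, LUM -3.53, GDF15 -3.28, BBC3 -3.17, ETV1 -2.75, ALDOC -2.50, SCD -2.27, ITGB4 -2.01, ASS1 -1.91, STC2 -1.78, VEGFA -1.71 and PLOD2 -1.02, and for the higher genes ATP5F1B 1.04, FOSL1 1.24, HSPA8 1.31, TNFAIP2 1.52, TIE1 3.16 and CRIP1 4.27.

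The range of the difference over the 8 fits that leave out a library is given in parentheses for named genes and list members whose call was lost in any of them. STC2 (-2.29 to -1.26), PFKFB4 (-2.22 to -1.13), ETV1 (-3.57 to -1.93), SCD (-3.01 to -1.54), GDF15 (-4.27 to -2.29), TIE1 (2.17 to 4.14) and ASS1 (-2.49 to -1.33) kept the call only without metastasizing replicate a at 3% oxygen or metastasizing replicate b at 3% oxygen. SLC2A1 (-1.34 to -0.80), FOSL1 (0.87 to 1.62), DHCR7 (-1.60 to -0.94), CHAC1 (-4.65 to -3.67) and TWIST1 (-2.44 to -1.48) kept the call only without metastasizing replicate b at 3% oxygen. DDIT4 (-4.60 to -2.58), ALDOC (-3.15 to -1.85) and CRIP1 (3.28 to 5.27) kept the call only without transformed replicate b at 3% oxygen, metastasizing replicate a at 3% oxygen or metastasizing replicate b at 3% oxygen. COL6A3 (0.96 to 1.36), ATF3 (-3.19 to -1.89) and CDKN1A (-2.74 to -1.39) kept the call only without transformed replicate a at 3% oxygen, metastasizing replicate a at 3% oxygen or metastasizing replicate b at 3% oxygen. IFITM1 (-5.88 to -3.17) and BST2 (-5.04 to -2.86) lost it without any 1 of the 4 libraries at atmospheric oxygen. HSPA5 (0.87 to 1.29) lost it without metastasizing replicate b at 3% oxygen. HSPE1 (0.96 to 1.15) lost it without transformed replicate b at 3% oxygen or metastasizing replicate a at 3% oxygen. ATP5F1B (0.88 to 1.20) lost it without transformed replicate b at 3% oxygen or metastasizing replicate b at 3% oxygen. VEGFA (-2.12 to -1.29) lost it without transformed replicate a at atmospheric oxygen, transformed replicate a at 3% oxygen, metastasizing replicate a at atmospheric oxygen or metastasizing replicate b at atmospheric oxygen. COL5A2 (-1.35 to -0.86) lost it without transformed replicate a at atmospheric oxygen, transformed replicate a at 3% oxygen, metastasizing replicate b at atmospheric oxygen or metastasizing replicate a at 3% oxygen. MMP3 (1.75 to 2.95) kept the call only without transformed replicate a at 3% oxygen, transformed replicate b at 3% oxygen or metastasizing replicate b at 3% oxygen. TNFAIP2 (1.23 to 1.80) lost it without transformed replicate a at atmospheric oxygen, transformed replicate b at atmospheric oxygen or metastasizing replicate b at atmospheric oxygen. ATF4 (-1.18 to -0.90) kept the call only without transformed replicate b at 3% oxygen, metastasizing replicate b at atmospheric oxygen or metastasizing replicate b at 3% oxygen. HK2 (-1.43 to -0.87) kept the call only without transformed replicate b at 3% oxygen or metastasizing replicate a at 3% oxygen. ITGB4 (-2.19 to -1.83) lost it without any 1 of the 8. NDRG1 (-2.90 to -1.82) lost it without transformed replicate a at atmospheric oxygen, transformed replicate b at atmospheric oxygen, transformed replicate b at 3% oxygen or metastasizing replicate a at atmospheric oxygen. HSPA8 (0.97 to 1.66) kept the call only without transformed replicate a at 3% oxygen or metastasizing replicate b at 3% oxygen. LGALS9 (-5.78 to -3.33) kept the call only without transformed replicate a at 3% oxygen or metastasizing replicate a at 3% oxygen. LUM (-4.51 to -2.54) lost it without transformed replicate a at atmospheric oxygen, transformed replicate b at atmospheric oxygen, transformed replicate b at 3% oxygen or metastasizing replicate b at atmospheric oxygen. HSP90AB1 (0.87 to 1.36) lost it without transformed replicate b at atmospheric oxygen or metastasizing replicate a at 3% oxygen. FAM162A (-1.999 to -1.24) lost it without transformed replicate b at atmospheric oxygen or metastasizing replicate b at atmospheric oxygen. PLOD2 (-1.17 to -0.86) lost it without transformed replicate b at atmospheric oxygen, transformed replicate a at 3% oxygen, metastasizing replicate b at atmospheric oxygen or metastasizing replicate a at 3% oxygen. BBC3 (-3.61 to -2.73) lost it without transformed replicate b at atmospheric oxygen, transformed replicate b at 3% oxygen or metastasizing replicate a at atmospheric oxygen.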

How the results depend on the processing

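The replicate spread, above all of metastasizing cells at 3% oxygen, and 2 plates of 1 line per group limit these results, and the TPM give no depth. The count of 1056 genes with different responses became 123 in a fit of the 8 libraries alone, 646 with weights per group, 1709 at an adjusted p under 0.05, and 428 with the replicate block (letters within stage), of which 421 were among the 1056. With the letters crossed in the metastasizing stage, chosen after seeing the data because their correlation was -0.11, it was 376, and without single libraries it was 578 to 1680. For the same settings the transformed response (907 genes) gave 389 with 8 libraries, 1028 with weights, 593 with the block, 615 crossed and 499 to 1065 without single libraries. The metastasizing response (929) gave 290 with 8 libraries, 344 with weights, 517 with the block, 553 crossed and 476 to 1427. The stage difference at atmospheric oxygen (496) gave 131, 749, 252, 247 and 248 to 666, and at 3% oxygen (713) it gave 160, 169, 384, 404 and 444 to 1172, in the same order. The 77 called list members became 14 with 8 libraries, 45 with the block, 39 crossed and 47 to 112 without single libraries. The cause was not tested, except that the fit of 8 libraries has 4 residual degrees of freedom and so has the block within stage.

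With median-ratio rescaling 905 of the 1056 genes were called and with quantile normalization 874. The sign turned for 4 genes that were not called. STYK1 (-0.20) was 0.088 with quantile normalization, and without single libraries it ranged from -2.51 to 2.11, with 1.45 without transformed replicate b and 2.11 without metastasizing replicate b at atmospheric oxygen. CSF3 (0.89) was -0.047 with a pseudocount of 0.1, -1.14 without transformed replicate a and -1.15 without metastasizing replicate b at 3% oxygen, and up to 2.93 without others. STC1 (-0.56) ranged from -1.52 to 0.40, the latter without metastasizing replicate a at 3% oxygen, and CSF2 (-0.95) from -2.69 to 0.79, the latter without transformed replicate b at 3% oxygen.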
